A study of Oryza sativa with 18 samples.

Results

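The comparison is of rice callus that overexpressed BOC1, called pOE, with callus of the same cultivar without the construct, called Teqing3. Every gene whose mean was above 1 FPKM (a fragment count scaled by the length of the gene and by all mapped fragments of the library) in either group was taken, which gave 22122 genes of the 38428 in the table. Of these, 19596 were above 1 FPKM in both groups, 1414 passed only through pOE and 1112 only through Teqing3. Just outside that limit lay 327 genes whose higher mean was between 0.9 and 1 FPKM, and just inside it lay 329 genes between 1 and 1.1 FPKM. The study looked for a gene that sets how far rice callus browns, and the comparison asks how the transcriptome of the callus differs when that gene is transcribed at a high level.

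Both groups were calli of the indica cultivar Teqing, subcultured for 21 days in the dark on a basal medium supplemented with a synthetic auxin and sucrose. Each group had 3 libraries, out of 18 in the series. The pOE calli carried the BOC1 open reading frame of YIL25, a Teqing line with introgressed wild rice segments, behind a ubiquitin promoter that drives transcription in most cells. The transformed line used, the number of lines and the selection history of the calli are not given in the sources used here, so 1 construct was compared with 1 control, and transformation and overexpression cannot be told apart. The study's methods call the 3 libraries of a group biological replicates, without saying whether they came from separate plants or plates, and the p-values measure the spread between these libraries.

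BOC1 encodes a protein of the SIMILAR TO RCD ONE family, plant proteins with a PARP-like domain that bind transcription factors and act in responses to stress. Browning of cultured plant tissue comes from phenolic compounds that are oxidised to quinones and polymerise into brown pigments, and enzymes that make phenols or handle reactive oxygen are therefore often examined in it. Rice callus lives on the sugar of its medium, and in cultured rice cells a fall in sugar is known to switch on alpha-amylase genes, the enzymes that cut starch. Calli also keep defence pathways that can be induced in culture, such as the diterpenoid phytoalexins of rice.

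The primers of the overexpression construct and those the study used for RT-qPCR of the gene are shown because they define the sequence that was added and the transcript that the study measured. Reads of the transgene and of the native gene add up in the value of the BOC1 locus and cannot be told apart. Capitals mark the KpnI site of the forward and the SpeI site of the reverse cloning primer.
Construct, forward: cggGGTACCacttgatcccgatcgccatt
Construct, reverse: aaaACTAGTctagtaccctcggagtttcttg
RT-qPCR, forward: tccctatgcttctgacggagat
RT-qPCR, reverse: cagttgtacgtcctctgcaaagtc

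The pOE libraries held between 20178993 and 21893028 reads over genes, and the Teqing3 libraries between 20934215 and 26298032. Libraries of a group differed by more than counting noise, with a chi-square of their counts between 2.35 and 4.31 times its degrees of freedom, so all 6 were kept as separate libraries. The first principal component held 90.1% of the variance of the tested genes and separated the groups. A second Teqing group of the same age, Teqing2, stood in another table that was normalized separately. Of the tested genes, 3964 differed at least 2-fold between the means of Teqing3 and Teqing2, against 3605 between pOE and Teqing3. Teqing2 levels are therefore given beside the main results, and the part that differences between the Teqing groups play in them was not tested. The same pOE libraries are set against both Teqing groups, so a shared direction is not independent evidence.

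The targeted gene comes first because it checks the labels. BOC1 (LOC_Os03g12820) lies on chromosome 3 from 6895178 to 6898348 of the IRGSP-1.0 build. Its level was 577, 576 and 584 FPKM in the pOE libraries and 64.7, 68.4 and 63.3 FPKM in the Teqing3 libraries. All pOE libraries were far above all Teqing3 libraries, by 8.84-fold between the means, and the transcript was already well expressed without the construct. On the log2(FPKM + 1) scale the fold change was 3.13, with a standard error (SE) of 0.0355 and a limma adjusted p of 2.55e-11. Teqing2 stood at 57.6 ± 0.324 FPKM, near Teqing3. The nearest tested genes on either side did not follow it. LOC_Os03g12810 was at 9.92, 8.90 and 9.14 FPKM in pOE and at 10.5, 11.2 and 10.2 FPKM in Teqing3 (adjusted p = 0.0605), and LOC_Os03g12840 was at 19.01, 19.5 and 18.14 against 18.6, 19.2 and 18.75 FPKM (adjusted p = 0.978). Of the next 4 tested genes beyond LOC_Os03g12840, 3 fell, against 8.9% of all tested genes. These were Os03g0231000 (log2 fold change -2.55), Os03g0231150 (-1.44) and LOC_Os03g12890 (-2.32), between 6931709 and 6950951.

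A gene was called changed when its fold on the log2(FPKM + 1) scale was at least 2 and its limma adjusted p, over all 22122 genes, was under 0.001. By this rule 1537 genes rose in pOE (6.95% of those tested) and 1969 fell (8.9%). The libraries of the 2 groups did not overlap for any of these genes, as they did not for 75.1% of all tested genes (36.7% with pOE higher and 38.4% with pOE lower). At an adjusted p under 0.05 and with no fold limit, 7806 genes were higher in pOE (35.3%) and 8149 lower (36.8%), 72.1% in all, so most genes passed the test alone and the fold limit set the calls. The decreases were larger, with a median absolute log2 fold change of 1.44 against 1.298 for the increases, and 95 genes fell at least 8-fold against 31 that rose as much. Of the calls, 347 of the higher and 430 of the lower genes passed the level filter in 1 group only, and such genes had to differ. The share of calls that were higher was 43.8%, and 59.9% when reads rebuilt from the FPKM values were scaled by their own totals, which moved the median log2 fold change of all genes from 0.00 to 0.17.

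**Figure D1:**
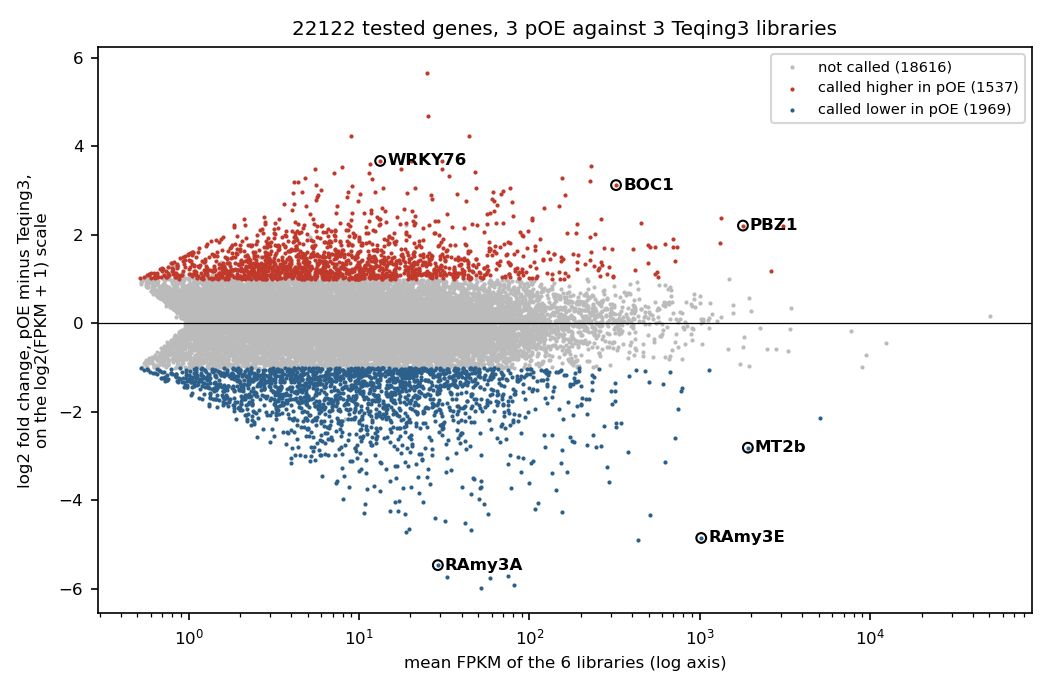
Log2 fold change of pOE minus Teqing3 on the log2(FPKM + 1) scale (vertical axis) against the mean FPKM of the 6 libraries (horizontal log axis) for 22122 tested genes, with 1537 genes called higher in pOE (red), 1969 called lower (blue) and named genes circled. BOC1 stands at 3.13, and the decreases reach further from 0 than the increases, with RAmy3A at -5.46.

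The alpha-amylase genes, whose products break starch into sugars, formed the group with the largest decreases. Of 8 genes in the list, 6 carried a name or description in the sources, and all 6 were tested. The 4 that were above 1 FPKM in both groups fell (8.9% of all tested genes fell). RAmy3A and AMY2A fell as well, but passed the filter only through Teqing3 and so had to be lower in pOE. Their summed level was between 257.9 and 270.7 FPKM in the pOE libraries and between 4161 and 4411 FPKM in the Teqing3 libraries. RAmy3E (LOC_Os08g36900), on chromosome 8 from 23335167 to 23337076, was the most abundant in Teqing3, at 69.8, 66.0 and 66.6 FPKM in pOE and 1989, 2023 and 1898 FPKM in Teqing3. That is 29.2-fold lower in pOE (log2 fold change -4.85, SE 0.0354, limma adjusted p = 4.04e-12). Its neighbour RAmy3D (LOC_Os08g36910) was at 49.3, 42.6 and 50.7 FPKM in pOE and 954, 987 and 955 FPKM in Teqing3, and no library of the 2 groups came near the other group. RAmy3A (LOC_Os09g28400) was almost silent in pOE, at 0.341, 0.519 and 0.158 FPKM against 58.7, 57.5 and 56.7 FPKM. Both genes of the subfamily 1 pair on chromosome 2, AMY1A and the adjacent LOC_Os02g52700, also fell. AMY1A (LOC_Os02g52710) was at 127 ± 5.28 FPKM (SD, n = 3) in pOE and 1115 ± 43.2 FPKM in Teqing3, and LOC_Os02g52700 was at 21 ± 1.35 against 188 ± 4.71 FPKM. AMY2A (LOC_Os06g49970) was low throughout, at 0.470 ± 0.182 against 2.41 ± 0.279 FPKM.

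The subfamilies differed in how they stood to the other Teqing group. In Teqing2 the RAmy3 genes were above even Teqing3, at 2793 ± 25.9 FPKM for RAmy3E, 2728 ± 24.7 FPKM for RAmy3D and 156 ± 5.95 FPKM for RAmy3A, in tables normalized separately. AMY1A was at 139.5 ± 4.27 FPKM in Teqing2, close to pOE, and LOC_Os02g52700 was at 35.3 ± 2.14 FPKM. The 3 RAmy3 genes were thus at least 2-fold lower in pOE than in either Teqing group, and the other 3 amylase genes only against Teqing3. The study's own sets of loci, chosen by direction on these libraries, hold AMY1A and LOC_Os02g52700, so their direction is not independent evidence. The 2 genes are related neighbours, the assignment of shared reads is unknown from the sources used here, and RAmy3D overlaps another gene model, so values of single members are uncertain.

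Among sucrose-cleaving enzymes some genes rose. Of 10 genes of sucrose synthase and invertase with a name, 5 were tested, 3 rose and none fell, against 6.95% and 8.9% of all tested genes, and the median log2 fold change was 1.13 against 0.00. SUS1 (LOC_Os03g28330), a sucrose synthase, was at 125, 126 and 124 FPKM in pOE and 15.2, 14.3 and 15.1 FPKM in Teqing3, a difference of 8.41-fold (limma log2 fold change 2.99, adjusted p = 6.56e-11). The level in Teqing2 was 30.3 ± 1.65 FPKM, also far below pOE. The cell-wall invertase gene CIN1 (LOC_Os02g33110) was at 18.2 ± 1.88 against 6.82 ± 0.608 FPKM and CIN2 (LOC_Os04g33740) at 5.05 ± 0.498 against 1.78 ± 0.417 FPKM. CIN1 belongs to the study's sets. SUS2, at 23.4 ± 1.25 against 14.8 ± 0.607 FPKM, and SUS4, at 35.7 ± 1.68 against 40.9 ± 0.953 FPKM, did not reach the fold limit.

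Fermentation genes split by isoform. PDC1 (LOC_Os05g39310), a pyruvate decarboxylase that makes acetaldehyde from pyruvate, was at 73.2, 78.2 and 73.3 FPKM in pOE and 9.80, 10.2 and 10.6 FPKM in Teqing3, with a log2 fold change of 2.76 (limma adjusted p = 3.37e-10). PDC2 (LOC_Os03g18220), which passed the filter only through Teqing3, fell from 3.07 ± 0.526 to 0.709 ± 0.229 FPKM. The alcohol dehydrogenase genes were the most abundant of these transcripts in pOE and did not reach the fold limit, ADH1 from 797 ± 5.05 to 1219 ± 9.53 FPKM and ADH2 from 504 ± 2.62 to 619 ± 2.96 FPKM. LOC_Os02g49720, annotated as an aldehyde dehydrogenase, an enzyme class that turns aldehydes into acids, was at 26.3, 28.8 and 26 FPKM in pOE and 868, 822 and 817 FPKM in Teqing3. Teqing2 lay between these groups at 339.8 ± 24.4 FPKM. LOC_Os02g49720 and PDC2 belong to the study's sets. Of the 5 tested genes 1 rose and 2 fell, against 6.95% and 8.9% of all tested genes.

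**Figure D2:**
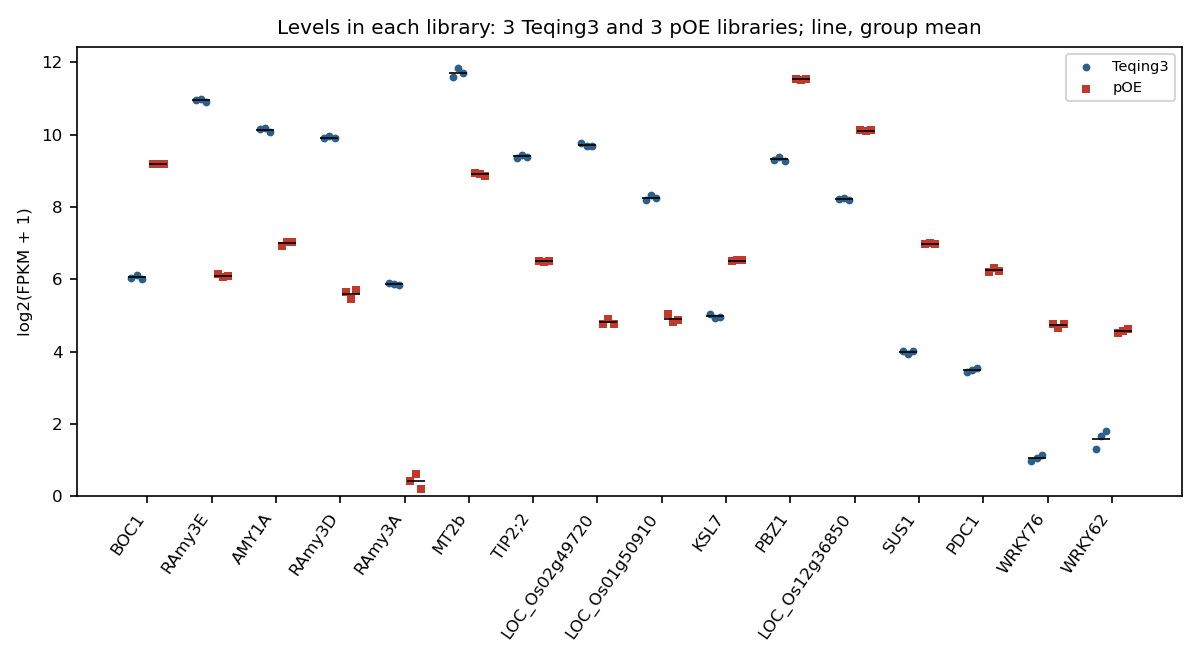
Level of 16 genes as log2(FPKM + 1) (vertical axis) in each of 3 Teqing3 libraries (blue circles) and 3 pOE libraries (red squares), with a line at each group mean. The 3 points of a group lie close together for every gene, and the groups are apart in opposite directions for the amylase genes on the left and for PBZ1, SUS1, PDC1 and the WRKY genes on the right.

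Genes of diterpenoid phytoalexin synthesis rose together along 2 stretches of the genome. These antimicrobial compounds of rice are made by enzymes whose genes lie in clusters, the phytocassane cluster on chromosome 2 and the momilactone cluster on chromosome 4. The clusters were looked up after runs of neighbouring called genes had been seen there, so their direction is a description with no test of its own. On chromosome 2, 8 of 9 loci examined matched a RefSeq name, and 7 of the 9 were tested. The 4 of these above 1 FPKM in both groups rose, and so did CYP71Z6, CYP71Z7 and CYP76M6, which passed the filter only through pOE and had to be higher. KSL5 and KSL6 were at or near 0 in every library. On chromosome 4, all 5 loci were tested, and the 3 above 1 FPKM in both groups rose. KSL4 and CYP99A2 passed only through pOE, and KSL4 was called. CYP99A2, at 1.1 ± 0.189 against 0.239 ± 0.0176 FPKM, missed the fold limit with the offset of 1 (log2 fold change 0.76) and passed it with a pseudocount of 0.1 (1.81) and in both fits to rebuilt reads (2.29 and 2.13). For comparison, 6.95% of all tested genes rose.

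KSL7 (LOC_Os02g36140), on chromosome 2 from 21765011 to 21773418, the diterpene synthase that forms the phytocassane precursor, was at 89.4, 91.0 and 90.9 FPKM in pOE and 31.8, 29.2 and 30.1 FPKM in Teqing3. The groups did not overlap and differed by 1.54 on the log2 scale (SE 0.0432, limma adjusted p = 3.80e-09). Larger differences were found for the cytochrome P450 genes beside it. CYP76M5 (LOC_Os02g36030) was at 39.4, 38 and 39.6 against 3.92, 3.66 and 3.86 FPKM, and CYP76M8 (LOC_Os02g36070) was at 51.3, 43.8 and 47.6 against 5.52, 5.96 and 4.98 FPKM. The most abundant gene of the cluster was LOC_Os02g36110, at 210.1 ± 9.89 FPKM in pOE and 33.6 ± 2.14 FPKM in Teqing3. CYP71Z7 (LOC_Os02g36190) was below the filter in Teqing3, at 0.226 ± 0.118 FPKM, and stood at 6.98 ± 0.521 FPKM in pOE. CYP71Z6 and CYP76M6, also below it in Teqing3, rose from 0.0367 ± 0.0449 to 1.36 ± 0.0399 FPKM and from 0.190 ± 0.0650 to 2.29 ± 0.490 FPKM.

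In the momilactone cluster, CPS4 (LOC_Os04g09900), which makes the syn-copalyl diphosphate that opens the pathway, was at 48.7, 45.9 and 46.2 FPKM in pOE and 17.41, 16 and 17 FPKM in Teqing3. KSL4 (LOC_Os04g10060), the next enzyme, was at 2.89 ± 0.601 against 0.647 ± 0.135 FPKM. CYP99A3 (LOC_Os04g09920), an oxidase of the pathway, was at 88.9 ± 2.51 against 26.7 ± 2.08 FPKM (log2 fold change 1.70), and MAS (LOC_Os04g10010), the last enzyme towards momilactone A, was at 81.7 ± 1.31 against 16.6 ± 1.42 FPKM (log2 fold change 2.24, limma adjusted p = 2.99e-09). Teqing2 levels were below Teqing3 for 8 of the 11 genes that rose, such as 6.50 ± 0.216 FPKM for KSL7 and 7.48 ± 0.482 FPKM for MAS, and 10 of the 11 were at least 2-fold above Teqing2 as well, KSL4 being the exception. Of 5 related diterpene synthase loci elsewhere, 2 were tested and none was called. KS1, which serves gibberellin synthesis, was at 25.9 ± 0.909 against 36.4 ± 1.67 FPKM, LOC_Os04g52210 beside it was at 37.5 ± 0.354 against 23.4 ± 1.09 FPKM, and CPS1 and KSL10 were at or near 0.

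**Figure D3:**
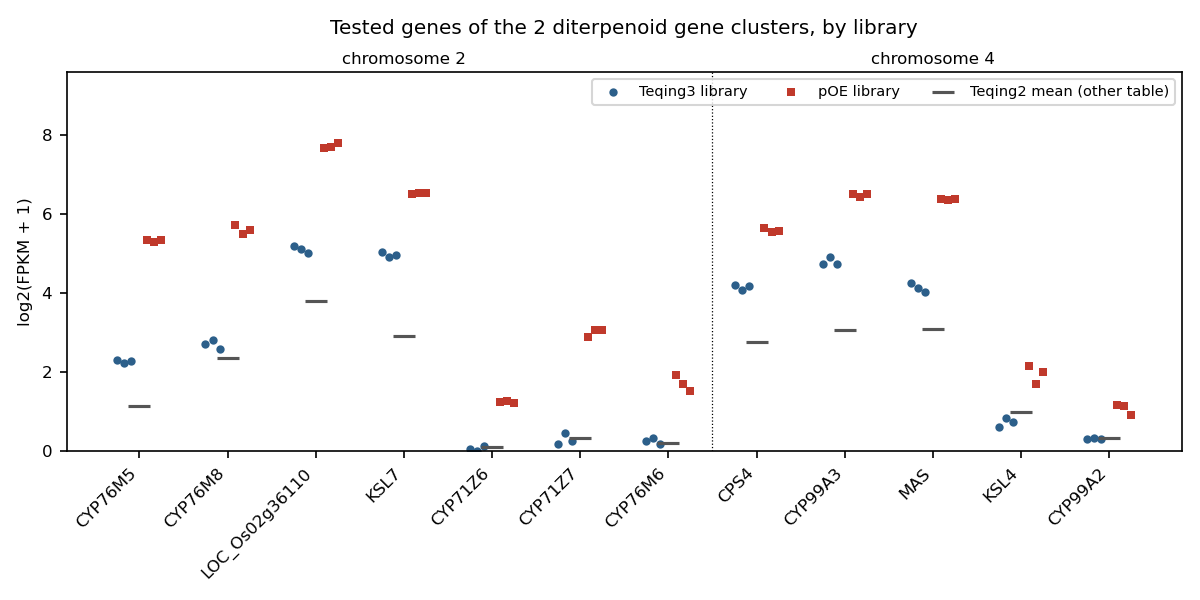
Level as log2(FPKM + 1) (vertical axis) of the 12 tested genes of the diterpenoid clusters on chromosome 2 (left of the dotted line) and chromosome 4 (right), in 3 Teqing3 libraries (blue circles) and 3 pOE libraries (red squares), with the Teqing2 mean from the other table as a grey dash. Every pOE library is above every Teqing3 library for each of the 12 genes, as for 36.7% of all tested genes, and 5 of the 12 passed the filter only through pOE.

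Pathogenesis-related genes, which encode proteins that accumulate after infection or wounding, were among the transcripts that gained most. Of 9 loci in the list, 3 had a name or description, and the others were left out of the count. All 3 were tested and rose (6.95% of all tested genes rose). Of these, 2 are in the study's sets, chosen by direction on these libraries, so their direction is not independent evidence. PBZ1 (LOC_Os12g36880), on chromosome 12 from 22600049 to 22601182, a small protein of the PR10 family that is induced by probenazole, was at 2968, 2908 and 2957 FPKM in pOE and 627, 659 and 619 FPKM in Teqing3 (log2 fold change 2.21, SE 0.0309, limma adjusted p = 6.56e-11). LOC_Os12g36850, of the same Bet v I family and lying close by, was at 1104 ± 7.10 against 295 ± 6.28 FPKM. LOC_Os12g36830 in the same stretch had the largest gain in FPKM of any gene called, from 1083, 1129 and 1075 to 5048, 5084 and 5033 FPKM. Both PBZ1 and LOC_Os12g36830 were also at least 2-fold above Teqing2, which stood at 313 ± 10.6 and 849 ± 28.3 FPKM. The thaumatin family gene LOC_Os12g43440 was at 69.1 ± 3.06 against 28.1 ± 1.81 FPKM. PBZ1 and LOC_Os12g36850 are related neighbours, so reads may be shared between them.

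The WRKY family holds transcription factors of defence and stress responses, and 6 genes of the list had a name and were tested. Of these 2 rose and 1 fell, against 6.95% and 8.9% of all tested genes. WRKY76 (LOC_Os09g25060) was at 26.2, 24.2 and 26.2 FPKM in pOE and 0.964, 1.08 and 1.20 FPKM in Teqing3, 23.6-fold apart (log2 fold change 3.67, limma adjusted p = 1.17e-09). WRKY62 (LOC_Os09g25070), the gene next to it, was at 21.7, 22.7 and 23.6 against 1.49, 2.14 and 2.52 FPKM. Both encode WRKY proteins known in rice as repressors of defence responses, and both were above Teqing2, at 3.36 ± 0.630 and 8.98 ± 0.476 FPKM. WRKY71 was higher at an adjusted p under 0.05 (83.9 ± 1.22 against 45 ± 3.55 FPKM) and did not reach the fold limit, although it did in the fit to rebuilt reads scaled by their own totals (1.06), and WRKY24 was at 6.03 ± 0.742 against 6.12 ± 0.994 FPKM. WRKY89 (LOC_Os08g17400), one of 2 members from the study's sets, fell from 32.4 ± 0.756 to 10.02 ± 1.4 FPKM and was at 9.86 ± 0.233 FPKM in Teqing2.

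Late embryogenesis abundant (LEA) proteins and dehydrins, which protect cells while they dry, mostly fell. Of 9 genes with a name or description, 8 were tested and 5 of the 9 are in the study's sets. Of the 6 above 1 FPKM in both groups, 5 fell and 1 rose, against 8.9% and 6.95% of all tested genes. LOC_Os01g50910, a group 3 LEA gene, was at 31.7, 27.1 and 28.3 FPKM in pOE and 293, 318 and 302 FPKM in Teqing3 (limma log2 fold change -3.35, adjusted p = 1.87e-10). LOC_Os04g49980, a group 1 LEA gene, was at 18.7 ± 1.37 against 268 ± 21 FPKM, and EM (LOC_Os05g28210), a seed maturation protein, was at 4.90 ± 0.989 against 75 ± 3.2 FPKM. LEA3 (LOC_Os05g46480), the most abundant member, was at 145, 138 and 147 FPKM in pOE and 477, 523 and 464 FPKM in Teqing3. Of the dehydrin genes, RAB16B was at 0.954 ± 0.248 against 11.2 ± 0.156 FPKM and RAB16D at 0.182 ± 0.315 against 4.21 ± 1.04 FPKM, and both passed the filter only through Teqing3 and so had to be lower. LOC_Os09g27730, annotated as HVA22, a family first known as induced by abscisic acid in barley and not itself a LEA protein, was the member that rose, to 16.2 ± 0.901 from 3.85 ± 1.12 FPKM. In Teqing2, LOC_Os01g50910 stood at 300.1 ± 3.41 FPKM, LOC_Os04g49980 at 202 ± 6.76 FPKM and EM at 66.8 ± 0.754 FPKM, far above pOE, while LEA3 stood at 146 ± 2.47 FPKM, level with pOE. In all, 5 of the 7 genes that fell were at least 2-fold below Teqing2 as well. Outside the study's sets, LEA3 and DIP1 fell among the genes above 1 FPKM in both groups.

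Abscisic acid is the hormone that induces many LEA genes, and few genes of its synthesis and breakdown passed the filter. Of 5 with a name, 3 were tested and 1 rose, against 6.95% of all tested genes. ABA8OX1 (LOC_Os02g47470), which inactivates the hormone and passed the filter only through pOE, was at 5.08, 5.63 and 5.29 FPKM in pOE and 0.778, 0.487 and 1.05 FPKM in Teqing3, and at 5.88 ± 0.694 FPKM in Teqing2. ABA8OX1 belongs to the study's sets. ABA8OX2 (LOC_Os08g36860) was at 19.3 ± 0.895 against 34.7 ± 0.504 FPKM and missed the fold limit, and NCED3, the gene of the limiting step of synthesis, was below 1 FPKM in every library.

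Enzymes that remove reactive oxygen did not move as 1 group. Superoxide dismutases turn superoxide into hydrogen peroxide, and 2 of their 4 named and tested genes rose. SODCC.2 (LOC_Os07g46990), a cytosolic copper-zinc enzyme, was at 350.0, 371 and 370.4 FPKM in pOE and 151, 150.1 and 153 FPKM in Teqing3 (limma log2 fold change 1.26, adjusted p = 2.40e-09). SODCC.1 (LOC_Os03g22810) was at 214 ± 12.7 against 106 ± 1.33 FPKM, at the limit of the call, with a log2 fold change of 1.01 that became 0.97 without pOE replicate 1 and 0.89 with the trend on gene length removed. SODCP, the gene of a chloroplast enzyme, was at 103 ± 6.76 against 74.2 ± 2.18 FPKM and SODA, that of a mitochondrial one, at 401 ± 9.28 against 384 ± 0.729 FPKM, and neither reached the fold limit. Catalases remove hydrogen peroxide, and 1 of their 2 named and tested genes fell. CATA (LOC_Os02g02400) was at 14.4, 16 and 15.1 FPKM in pOE and 165, 165 and 161 FPKM in Teqing3, 10.8-fold lower, with Teqing2 at 43.5 ± 0.794 FPKM. CATB (LOC_Os06g51150), the more abundant of these 2 catalase genes, was at 204 ± 0.90 against 391.6 ± 11.8 FPKM (log2 fold change -0.94). Of 10 listed dismutase and catalase loci, 6 had a name source, and all 6 were tested. Of these, 2 rose and 1 fell, against 6.95% and 8.9% of all tested genes.

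The ascorbate-glutathione cycle, which uses ascorbate to reduce hydrogen peroxide, had 10 genes with a name or description. Of these, 8 were tested, 1 rose and 1 fell, against 6.95% and 8.9% of all tested genes. APX1 (LOC_Os03g17690), the most abundant ascorbate peroxidase, was at 1202, 1171 and 1176 FPKM in pOE and 2288, 2227 and 2236 FPKM in Teqing3, a log2 fold change of -0.93 that stayed inside the fold limit. APX2 (LOC_Os07g49400) fell from 717 ± 21.5 to 287 ± 0.742 FPKM, with Teqing2 at 93.0 ± 1.98 FPKM, below both. LOC_Os04g46960, annotated as a glutathione peroxidase, rose from 28.4 ± 0.130 to 65.0 ± 5.23 FPKM and belongs to the study's sets. The glutathione S-transferase gene LOC_Os10g38470, one of the 12 largest decreases, was at 1.22, 2.26 and 1.73 FPKM in pOE and 159, 168 and 157 FPKM in Teqing3, and in Teqing2 at 47.3 ± 0.641 FPKM. LOC_Os10g38470 also belongs to the study's sets. It lies in a run of 7 neighbouring tested genes on chromosome 10, between 20488627 and 20560614, that all fell, with log2 fold changes from -5.91 to -1.24.

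Metallothioneins are small cysteine-rich proteins that bind metals and react with hydroxyl radicals. Of 5 genes with a name, all were tested, 2 fell and none rose, against 8.9% and 6.95% of all tested genes. MT2b (LOC_Os05g02070) was among the most abundant transcripts of Teqing3, at 3062, 3662 and 3327 FPKM, and was at 490.1, 477 and 463 FPKM in pOE. The libraries were far apart (log2 fold change -2.81, SE 0.0572, limma adjusted p = 5.32e-10), and Teqing2 was at 2731 ± 52.3 FPKM. MT1b fell from 10.4 ± 0.668 to 1.5 ± 0.413 FPKM. MT2A (LOC_Os01g05650), at 685 ± 15.7 against 950.5 ± 30.9 FPKM, did not reach the fold limit and stood at 294 ± 4.92 FPKM in Teqing2.

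Few enzymes of phenol synthesis, the source of the compounds that brown, carried a name or description. Of 13 loci in the list of phenylpropanoid and lignin enzymes with polyphenol oxidase, 5 had a name or description. All 5 were tested, 1 fell and none rose, against 8.9% and 6.95% of all tested genes. Their median log2 fold change was -0.55. At a limma adjusted p under 0.05, 4 were lower and 1 higher, against 36.8% and 35.3% of all tested genes. Most phenylalanine ammonia-lyase loci of the list had no name source and were left out, and no value could be taken for the polyphenol oxidase locus. LOC_Os05g25640, described as a cytochrome P450 in the study's sets, was at 24.7, 24.7 and 27.5 FPKM in pOE and 86.9, 92.0 and 83.5 FPKM in Teqing3, and at 21.9 ± 2.32 FPKM in Teqing2, below pOE. CAD2, a cinnamyl alcohol dehydrogenase, was at 79.5 ± 4.75 against 117 ± 2.13 FPKM. The phenylalanine ammonia-lyase gene PAL06 was low, at 4.58 ± 0.195 against 6.56 ± 0.939 FPKM, and 4CL3 was at 22.6 ± 0.254 against 18.4 ± 0.421 FPKM. For these 3 genes the difference was inside the fold limit, although the groups differed at an adjusted p under 0.05.

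Most water channel genes fell. Of 14 aquaporin genes with a name, 10 were tested, 8 fell (8.9% of all tested genes fell) and none rose, and none is in the study's sets. One of the 8, PIP2;2, passed the filter only through Teqing3, and the median log2 fold change of the 10 was -1.14. The summed level of the tested genes was between 503 and 525 FPKM in pOE and between 1537 and 1620 FPKM in Teqing3. TIP2;2 (LOC_Os06g22960), a channel of the vacuole membrane, was at 89, 88.6 and 90.4 FPKM in pOE and 658, 692 and 666 FPKM in Teqing3 (limma log2 fold change -2.90, adjusted p = 2.34e-11). PIP1;1 (LOC_Os02g44630), a channel of the plasma membrane, was at 68.6 ± 3.42 against 293 ± 12.8 FPKM, and TIP1;1 (LOC_Os03g05290) was at 7.96 ± 1.98 against 65.8 ± 0.545 FPKM. Teqing2 was at 275 ± 5.41 FPKM for TIP2;2, at 115 ± 4.20 FPKM for PIP1;1 and at 4.16 ± 0.223 FPKM for TIP1;1, and 2 of the 8 genes were also at least 2-fold below Teqing2. PIP1;3, the most abundant after TIP2;2 in Teqing3, was at 240.2 ± 5.54 against 315 ± 13.1 FPKM and missed the fold limit.

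Most genes of the growing cell wall were not called. Of 9 tested expansin genes, which encode wall-loosening proteins, 2 fell and none rose, against 8.9% and 6.95% of all tested genes. EXPA7 (LOC_Os03g60720) was at 25.7, 24.1 and 22 FPKM in pOE and 81.5, 77.9 and 79.9 FPKM in Teqing3, and EXPA5 at 13 ± 0.848 against 32.9 ± 1.36 FPKM. EXPA5 belongs to the study's sets. The most abundant, EXPB3, was at 184 ± 5.69 against 239.5 ± 10.2 FPKM. Of 7 tested cellulose synthase genes, 2 fell, both from the study's sets. CESA2 (LOC_Os03g59340) was at 6.01 ± 0.139 against 24.8 ± 0.416 FPKM, and CESA8 (LOC_Os07g10770) at 15.3 ± 0.282 against 32.8 ± 1.89 FPKM, with Teqing2 at 5.19 ± 0.317 and 11.1 ± 0.447 FPKM. The log2 fold change of CESA8, -1.05, became -0.81 with the trend on gene length removed and -0.93 in the fit to rebuilt reads.

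Cell division genes were slightly higher. Of 12 tested genes of the cell cycle, 11 were higher in pOE at an adjusted p under 0.05 (35.3% of all tested genes were) and none lower. Their median log2 fold change was 0.51, and only MCM5, a helicase subunit of DNA replication, reached the fold limit. MCM5 (LOC_Os02g55410) was at 11, 11.1 and 11.1 FPKM in pOE and 5.16, 5.36 and 4.39 FPKM in Teqing3. Its fold change, 1.016 on the log2 scale, became 0.94 without Teqing3 replicate 3. PCNA (LOC_Os02g56130), the sliding clamp of DNA polymerase, was at 56.0 ± 0.720 against 41.5 ± 1.05 FPKM, and CDKB2;1, a kinase of mitosis, at 20.2 ± 1.63 against 12.5 ± 0.447 FPKM. Teqing2 was above pOE for both MCM5 and PCNA, at 21.5 ± 1.38 and 84.4 ± 1.47 FPKM.

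Auxin genes changed in both directions. GH3 enzymes attach amino acids to auxin and so remove it, and PIN proteins carry it out of cells. Of 10 genes, 6 were tested, 2 rose and 3 fell, against 6.95% and 8.9% of all tested genes. Of the 10, 4 are in the study's sets. GH3.2 (LOC_Os01g55940), which is in none of these sets, was at 46.1, 47.7 and 44.0 FPKM in pOE and 136, 138 and 136 FPKM in Teqing3 (limma log2 fold change -1.55, adjusted p = 2.05e-09). OsGH3.3 fell from 14.7 ± 0.844 to 2.54 ± 0.323 FPKM. PIN1C (LOC_Os06g12610) rose from 3.72 ± 0.398 to 18.4 ± 0.601 FPKM. In Teqing2, OsGH3.3 was at 3.21 ± 0.308 FPKM and PIN1C at 15.9 ± 0.619 FPKM, near the pOE levels, and none of the 5 genes called was at least 2-fold from Teqing2 on the same side.

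In the ethylene pathway 9 genes were tested, 1 rose and 2 fell, against 6.95% and 8.9% of all tested genes. LOC_Os03g20780, described as an ETHYLENE-INSENSITIVE 3 factor, the regulator that carries the ethylene signal to its targets, was at 7.08, 7.70 and 7.89 FPKM in pOE and 40.6, 40.8 and 38.3 FPKM in Teqing3, and at 16.3 ± 0.754 FPKM in Teqing2. LOC_Os03g20780 belongs to the study's sets. The receptor gene ETR2 fell from 22.5 ± 1.12 to 8.0 ± 0.369 FPKM. ACO1, whose enzyme makes ethylene and which passed the filter only through pOE, rose from 0.629 ± 0.306 to 3.64 ± 0.480 FPKM. All 3 were also at least 2-fold from Teqing2 on the same side. Of 11 tested genes of jasmonate synthesis and its JAZ repressors, 1 rose, and JAZ7, the most abundant, was at 314 ± 1.05 against 282 ± 6.35 FPKM. The gene that rose, LOC_Os06g11290, annotated as an oxophytodienoate reductase and part of the study's sets, was at 8.44 ± 0.747 against 3.6 ± 0.405 FPKM. Its log2 fold change of 1.04 became 0.98 without pOE replicate 2, under the limit, and also fell under it without Teqing3 replicate 2. None of 7 tested type-A response regulators, the early targets of cytokinin, was called.

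Nitrogen and iron genes were lower where they were called. Of 7 tested genes of nitrogen assimilation, 3 fell (8.9% of all tested genes fell) and none rose. GS1;2 (LOC_Os03g12290), a cytosolic glutamine synthetase that fixes ammonium, was at 41.4, 42.6 and 48.0 FPKM in pOE and 139, 157 and 141 FPKM in Teqing3, and GS1;3 was at 24.9 ± 0.374 against 68.6 ± 2.04 FPKM. GS1;1, the most abundant form, was at 223 ± 2.68 against 258 ± 7.73 FPKM. The glutamate synthase gene FD-GOGAT was at 12 ± 0.624 against 29.2 ± 0.695 FPKM, and its log2 fold change of -1.22 became -0.93 with the trend on gene length removed. None of the 3 nitrogen genes that fell was at least 2-fold below Teqing2, where GS1;2 was at 26.7 ± 0.755, GS1;3 at 44.0 ± 2.68 and FD-GOGAT at 12.5 ± 0.0858 FPKM. Of 5 tested genes of iron uptake, 2 fell. NAS3, a nicotianamine synthase, was at 19.4 ± 2.41 against 72.8 ± 3.34 FPKM with Teqing2 at 20.8 ± 2.67 FPKM, level with pOE. YSL15, which imports iron chelates and passed the filter only through Teqing3, was at 0.179 ± 0.0709 against 3.11 ± 0.454 FPKM with Teqing2 at 7.01 ± 0.0680 FPKM.

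Among the other regulators, NAC6 (LOC_Os01g66120), a stress-induced factor, was the most abundant of 6 tested NAC genes, at 256 ± 3.22 against 224 ± 16.8 FPKM. LOC_Os06g36480 and LOC_Os01g66490, NAC genes of the study's sets, were the 2 of 6 that fell, against 8.9% of all tested genes. Both passed the filter only through Teqing3 and so had to be lower. LOC_Os06g36480 fell from 4.15 ± 0.633 to 0.764 ± 0.352 FPKM. DREB1A (LOC_Os09g35030), a cold-induced factor that passed the filter only through Teqing3, was at 0.354, 1.16 and 1.26 FPKM in pOE and 4.80, 4.53 and 2.93 FPKM in Teqing3, and its limma adjusted p of 3.11e-04 rose to between 0.00123 and 0.00184 without a filter, with a pseudocount of 0.1, or without Teqing3 replicate 1 or 2. Of 18 listed transcription factors of embryos and regeneration, 8 had a name source, and none of the 6 of these tested was called. VP1, the most abundant of the 6, was at 32.2 ± 0.271 against 34.6 ± 0.506 FPKM. Among the loci left out for lack of a name source, LOC_Os01g64000 fell, in a run of 3 neighbouring tested genes on chromosome 1. None of 6 tested heat shock genes was called. At a limma adjusted p under 0.05, 4 were lower and 1 higher, against 36.8% and 35.3% of all tested genes. HSP81-1, one of the lower genes, was at 157 ± 1.75 against 314 ± 10.6 FPKM. HSP81-1 lay just inside the fold limit and passed it without Teqing3 replicate 2 (-1.021). The small heat shock gene HSP17.9A (LOC_Os03g15960), outside that list, fell from 1173 ± 26.8 to 308 ± 5.70 FPKM, and Teqing2 was at 104 ± 3.26 FPKM, below both groups.

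**Figure D4:**
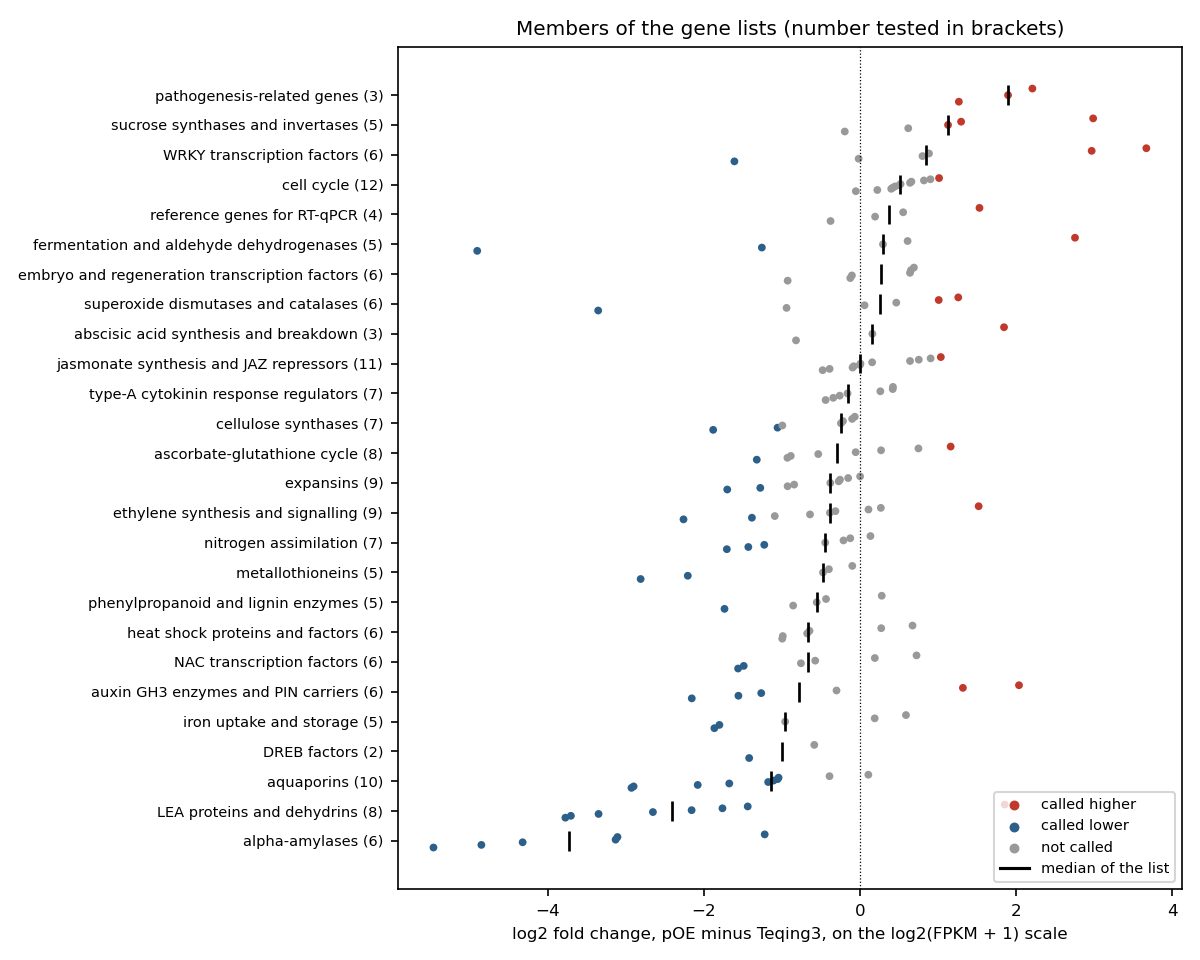
Log2 fold change of pOE minus Teqing3 on the log2(FPKM + 1) scale (horizontal axis) for every tested member of 26 gene lists (vertical axis, number tested in brackets), red where called higher, blue where called lower, grey where not called, with a black line at the median of each list, genes that passed the filter in 1 group only included. The alpha-amylases (median -3.72), the LEA proteins and dehydrins (-2.40) and the aquaporins (-1.14) lie furthest to the left, and the pathogenesis-related genes (1.90) furthest to the right.

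Many of the most changed genes carry no name in the files or sources and are given by locus number. Among the 12 largest increases, LOC_Os11g31540 was at 423, 428 and 413 FPKM in pOE and 35.9, 35.7 and 33.3 FPKM in Teqing3, and at 10.8 ± 1.4 FPKM in Teqing2. LOC_Os04g32610 was at 84.7 ± 1.91 against 3.57 ± 0.468 FPKM and LOC_Os11g29420 at 38.1 ± 2.24 against 2.11 ± 0.607 FPKM. Of these 12 genes, 11 were at least 2-fold above Teqing2 too. The exception was Os08g0246001, at 49.0, 52.2 and 48.1 FPKM in pOE, listed at 0 in all 3 Teqing3 libraries, and at 50.4 ± 3.1 FPKM in Teqing2. It passed the filter only through pOE and so had to be higher. The same holds for LOC_Os06g23870, Os01g0183950, LOC_Os05g40070, LOC_Os09g04384 and the unannotated model that starts at 12963908 on chromosome 12.

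Of the 12 largest decreases, all were at least 2-fold below Teqing2 as well as Teqing3. LOC_Os11g26790 had the largest, at 0.920, 0.315 and 0.789 FPKM in pOE against 97.8, 110.3 and 100.1 FPKM (log2 fold change -5.97, limma adjusted p = 8.23e-10). LOC_Os02g37250 was at 0.256 ± 0.248 against 65.1 ± 5.28 FPKM. LOC_Os11g26790, LOC_Os02g37250, RAmy3A, LOC_Os04g29550 and LOC_Os11g26570 passed the filter only through Teqing3 and so had to be lower. Os04g0362375 was at 1.82 ± 0.103 against 147 ± 4.27 FPKM. In absolute terms the largest loss was that of LOC_Os01g10400, from 8238, 8282 and 8426 FPKM in Teqing3 to 1914, 1896 and 1876 FPKM in pOE, with 5471 ± 47.6 FPKM in Teqing2. The largest gains after LOC_Os12g36830 and PBZ1 were those of LOC_Os08g04240, from 1590.2 ± 32.2 to 3611 ± 25.1 FPKM, and LOC_Os10g31420, from 424 ± 46.9 to 2222 ± 57.5 FPKM. LOC_Os08g04240 lies in a run of 4 neighbouring tested genes on chromosome 8 that all rose, between 2054222 and 2067718, which includes LOC_Os08g04250 at 2044 ± 18.4 against 583 ± 6.58 FPKM.

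A number of calls were genes seen in 1 group only, which passed the filter through that group and so had to differ. In all, 25 genes that rose were listed at 0 in every Teqing3 library, at 1.04 to 49.8 FPKM in pOE, and 11 genes that fell were listed at 0 in every pOE library, at 1.05 to 7.95 FPKM in Teqing3. LOC_Os06g23870 was at 18.4, 15.7 and 19.6 FPKM in pOE and at 0 in all libraries of Teqing3 and Teqing2. In the other direction, LOC_Os09g32290 was at 8.25, 8.80 and 6.81 FPKM in Teqing3 and at 0 in pOE. Of the 25 genes, 12 were also at 0 in all 3 Teqing2 libraries and 8 were above 1 FPKM there.

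Against both Teqing groups the set of changed genes was smaller. Of the 1537 genes that rose, 711 (46.3%) were at least 2-fold above Teqing2, with no overlap between libraries, and of the 1969 that fell, 640 were at least 2-fold below it in the same way. Among all tested genes, 1962 were at least 2-fold above Teqing2 in pOE and 1452 at least 2-fold below it, whether or not libraries overlapped. On the other side of Teqing2 lay 301 of the genes that rose and 627 of those that fell. The tables were normalized separately and these comparisons have no test, so they describe how the pOE levels lie between and beyond the Teqing groups.

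Calls were spread over the genome. Over the 12 chromosomes, the share of tested genes that rose ran from 5.83% on chromosome 2 to 9.07% on chromosome 10, and the share that fell from 7.85% on chromosome 8 to 9.88% on chromosome 10. In 352 windows of 1 Mb with at least 20 tested genes, the median share was 6.28% higher and 8.63% lower. The window that holds BOC1, from 6000001 to 7000000 on chromosome 3, had 5 of 80 genes higher and 9 lower. The highest share of increases was 8 of 27 genes, in the window from 5000001 to 6000000 on chromosome 4 that holds the momilactone cluster, and the highest share of decreases was 7 of 28, in the window from 31000001 to 32000000 on chromosome 6.

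Gene length moved with the direction of the calls. The tested genes were split into 5 equal classes. In the class of the shortest genes, with a median length of 647 bases, 13.5% rose and 9.94% fell, and in that of the longest, at 3066 bases, 2.08% rose and 7.84% fell. The median log2 fold change ran from 0.27 in the shortest to -0.19 in the longest class. Teqing3 minus Teqing2 ran the other way, from -0.12 to 0.17, while pOE minus Teqing2 ran from 0.05 to -0.02. With each library's trend on length removed, 9.99% of the shortest and 3.86% of the longest class rose and 11.6% and 4.93% fell, and 1346 of the 1537 higher and 1720 of the 1969 lower calls were made again. The part that length plays in single calls was not tested. In 5 such classes of mean level, 5.06% to 9.92% rose and 7.50% to 9.99% fell. Unannotated gene models rose more often, 190 of 1263 (15.04%), than annotated loci, 1339 of 20703 (6.47%).

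**Figure D5:**
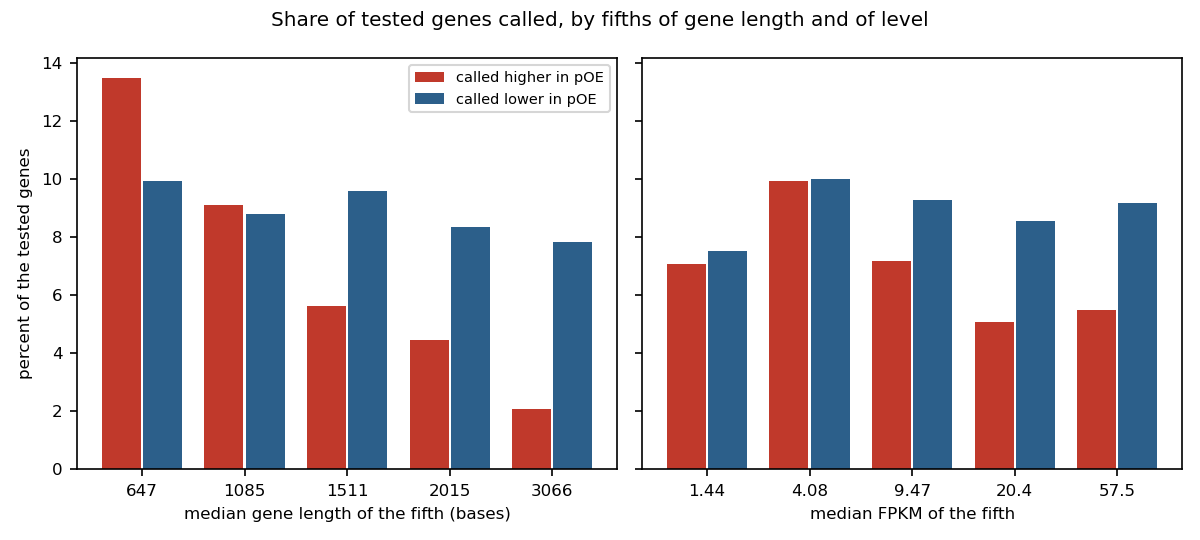
Percent of tested genes called higher (red) or lower (blue) in pOE (vertical axis, from 0) in 5 classes of gene length (left, labelled by median length in bases) and 5 of mean level (right, labelled by median FPKM), each of about 4424 genes. The share called higher falls from 13.5% to 2.08% from the shortest to the longest genes, while the share called lower stays between 7.84% and 9.94%.

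Genes often used as references were not all level. The actin gene LOC_Os03g50885, which belongs to the study's sets, was at 26.2, 27.5 and 27.3 FPKM in pOE, 8.53, 9.38 and 8.10 FPKM in Teqing3 and 39.7 ± 2.39 FPKM in Teqing2, so it rose by the rule used here (limma log2 fold change 1.53, adjusted p = 5.91e-08) and was lower than in the other Teqing group. GAPDH on chromosome 4 was at 1099 ± 23.1 against 747 ± 22.4 FPKM and the elongation factor gene EF-1-ALPHA at 787 ± 14.9 against 1019.7 ± 5.63 FPKM.

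The leaf and endosperm markers with a name were low, except for CAB1R in the Teqing groups. Of 4 leaf genes with a name, RBCS and RCABP69, which define green tissue, were under 0.25 FPKM in every library. CAB1R fell from 49.0 ± 1.74 to 3.02 ± 0.297 FPKM, with Teqing2 at 54.9 ± 4.28 FPKM. CAB2R, which passed the filter only through pOE and so had to be higher, rose from 0.507 ± 0.136 to 3.26 ± 0.616 FPKM. The summed level of the tested pair was between 5.23 and 6.89 FPKM in pOE and between 48.3 and 51.6 FPKM in Teqing3. The endosperm genes GLUA1 and GLUA2 together held between 3.15 and 4.82 FPKM in pOE and between 3.67 and 4.26 FPKM in Teqing3, and neither was called. Of the meristem markers, OSH1 was under 0.25 FPKM in every library and the other 2 went opposite ways without reaching the fold limit. WOX11, from the study's sets, was at 6.79 ± 0.859 against 13.7 ± 0.973 FPKM, and LOC_Os01g63510, WOX5 in RefSeq, was at 13.5 ± 1.64 against 7.95 ± 0.906 FPKM. The part of other cell types in the results was not tested. In bulk callus, fewer cells of a type and less RNA per cell cannot be told apart.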

How the data were processed

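Total RNA of rice callus was sequenced in 3 pOE and 3 Teqing3 libraries. The authors called bases with CASAVA 1.8 and bcl2fastq, mapped reads with TopHat2 to IRGSP-1.0 and deposited FPKM per gene with gene lengths, Cufflinks being named in the submitters' notes. The FPKM values were whole multiples of 1 read (100% of values under 100 reads within 0.05), so reads could be rebuilt. The deposited table's own fold changes and p-values were not used. From the FPKM, log2(FPKM + 1) was fitted in limma 3.58.1 (R 4.3.3, trend on mean level), with Benjamini-Hochberg adjustment over genes above a mean of 1 FPKM in either group. The fold of at least 2 and the adjusted p under 0.001 follow the study's methods, and fold changes on this scale understate low genes. In simulated data the fit recovered most 3-fold increases at a limma adjusted p under 0.05. That limit is looser than the rule of the calls, and the simulation held no shift with gene length.

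The members and gene lists were chosen with earlier results of these data known, and the diterpenoid clusters after the values were seen. Named genes were BOC1, actin, the 12 largest changes in each direction at 5 FPKM or more, the 8 largest differences in FPKM, the 3 highest genes at 0 in the other group, and in each list up to 3 called members and the most abundant. Of 299 listed loci, 189 took a name from RefSeq (assembly ASM3414082v1; same symbol and chromosome, span ratio from 0.7 to 1.4, position within 5 Mb), 21 from the study, and 89 without a source were left out. Counts of tested genes in the gene lists thus cover only loci with a name source. The values of 1 named gene are not reported here. Strand and the assignment of shared reads are not given in the sources used here, so values of close paralogs and of overlapping or antisense models are uncertain. Alternatives were another scaling, other filters, a pseudocount of 0.1, no fold limit, voom in limma on rebuilt reads, removal of the trend on gene length, a replicate block and leaving out each library.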

Additional observations from a re-analysis of the deposited data

How the results depend on the processing

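The counts of 1537 higher and 1969 lower genes stayed within 1.5 times under median-of-ratios scaling, the other filters, a pseudocount of 0.1 (1982 and 2305), removal of the trend on gene length, and voom on rebuilt reads with the totals that the FPKM values imply (2297 and 2544), an alternative chosen after seeing the data. Without genes that passed the filter in 1 group only, 1190 and 1539 remained. With no fold limit and an adjusted p under 0.05 there were 7806 higher and 8149 lower genes, with both limits relaxed at once. Voom on rebuilt reads scaled to their own totals gave 3043 higher and 2038 lower genes, with the median of all genes at 0.17. Leaving out 1 library gave 1437 to 1538 higher and 1895 to 1954 lower genes, and a log2 fold change of BOC1 between 3.102 and 3.16, and BOC1 was called in every alternative. With a replicate block there were 1522 higher and 1960 lower genes, and the pairing by replicate number was not supported by the deviations of the libraries (correlations of -0.0210, -0.0308 and 0.00866).

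Of the 121 named genes, 6 lost their call in at least 1 alternative, and at the same limits CYP99A2, WRKY71 and HSP81-1 gained one. Small values changed sign with the trend on gene length removed, VP1 (LOC_Os01g68370) to 0.0505, SODA (LOC_Os05g25850) to -0.0198 and CESA1 (LOC_Os05g08370) to 0.0211, and VP1 was at 0.0638 with voom on rebuilt reads, and none of these was called. The depth of 20178993 to 26298032 reads a library leaves genes near 1 FPKM with few reads, and 3 libraries a group set the precision.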

Other observations

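Runs of neighbouring genes called the same way were counted after the values were seen and have no test. There were 28 runs of at least 3 tested genes that rose and 30 that fell. The longest were the 7 genes on chromosome 10 that fell, then 6 and 5 genes that rose in the stretches of the diterpenoid clusters. On chromosome 11, 2 runs of 4 genes that rose lay close together, between 28730171 and 28740634 and between 28753859 and 28761600, and the most abundant gene of each reached 789 and 834 FPKM in pOE against 237 and 250.4 FPKM at most in Teqing3. A run of 4 genes on chromosome 6, from LOC_Os06g04990 at 1135 ± 35.6 against 342 ± 13.5 FPKM, and one of 4 on chromosome 7 also rose, and all genes of both runs were at least 2-fold above Teqing2 as well. In the longest runs, 3 of 7, 6 of 6 and 4 of 5 genes lay at least 2-fold beyond Teqing2 without library overlap. In the chromosome 11 runs it was 2 of 4 and 4 of 4.

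Of 12 tested genes on the mitochondrial sequence, 2 rose and none fell, against 6.95% and 8.9% of all tested genes. Their median log2 fold change was 0.87 against Teqing3 and 0.01 against Teqing2. Of 147 tested models of short non-coding RNA, 7 rose and 7 fell. The most abundant transcript of both groups took between 7.34% and 7.46% of the summed FPKM in the pOE libraries and between 6.03% and 6.41% in the Teqing3 libraries.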
